A study of Mus musculus with 2 samples.

Results

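The 30 genes described here handle cholesterol in the cell, and they were taken by name from the 17592 gene columns of a single-cell table of the mouse dentate gyrus. They comprise 17 enzymes of synthesis, 6 genes of sterol sensing and control, and 7 genes of uptake, trafficking, storage and efflux. The rule that lists them uses no measured value, though the list was drawn up with earlier results of these data known. All 30 were present in the table. The brain makes its own cholesterol because plasma lipoproteins do not cross the blood-brain barrier, and glia are known as its main source in the adult. Synthesis runs from acetyl units to mevalonate, then to squalene and lanosterol, and from lanosterol through a series of demethylations, reductions and an isomerisation to cholesterol. The SREBP transcription factors switch these genes on when sterol is scarce, whereas liver X receptors respond to oxidised sterols and act on efflux genes.

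The tissue was microdissected from C57BL/6 mice, dissociated with papain and sorted for live cells that take up no propidium iodide, before 10x Genomics 3′ v3 library preparation. There was 1 library from mice of 3 months, called young, and 1 from mice of 16 months, called old. Both carry the same strain, tissue and procedure, no transgene or treatment is named, and the number of animals behind a library is not given in the sources used here. The young library held 2463 cells with 16217559 UMIs (unique molecular identifiers, 1 per captured transcript), and the old library 1430 cells with 7451506 UMIs.

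Of the 1430 cell barcodes of the old library, 1401 (98%) were also in the young library, and 1113 barcodes of the brain classes described below were in both. Which age a cell with a shared barcode came from was not determined, so the levels below are not read as those of 1 age. The young library was taken as the main source, and its values are compared between cell classes and not between ages. With 1 library per age there is no replicate, so no p-value was computed. Each level is the summed UMIs of a gene per 10,000 UMIs of a class, and each 95% interval covers counting error only.

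Cells were clustered without the 30 genes and without 36 other genes of the pathway, so that neither list could shape the classes. Clusters were called X-like from their markers, which gave 304 astrocyte-like cells (898550 UMIs), 79 mature oligodendrocyte-like cells (712205), 48 oligodendrocyte precursor-like cells (352648) and 58 neuroblast or immature granule neuron-like cells (446298), the last called neuroblast-like below. The vascular classes were 129 endothelial-like (458728), 67 pericyte-like (218659) and 14 smooth muscle-like cells (92878), and 364 cells were microglia-like (2912180). Together with 85 cells of unnamed clusters they are the brain-class cells, 1148 in all. No cluster of mature granule neurons was named, so the only neuron-type class here is an immature one. Another 1315 young cells with a median mitochondrial share of 0.0814% were left out of the comparisons.

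Astrocyte-like cells held the most synthesis RNA and microglia-like cells the least. The 17 synthesis genes summed to 20.74 UMIs per 10,000 (19.81 to 21.71) in astrocyte-like cells. Mature oligodendrocyte-like cells followed with 11.93, neuroblast-like with 9.299 and oligodendrocyte precursor-like cells with 8.309. The sums were lower in the smooth muscle-like class (6.137), the endothelial-like class (5.254) and pericyte-like cells (5.168), and lowest in microglia-like cells (2.27, 2.1 to 2.45). The astrocyte-like level was 1.738 times (1.602 to 1.887) the mature oligodendrocyte-like level and 9.139 times (8.359 to 10) the microglia-like level. With called doublets kept, neighbours in this order did not differ beyond counting error between neuroblast-like and precursor-like cells, between smooth muscle-like and endothelial-like cells, or between endothelial-like and pericyte-like cells. Without 9 precursor-like cells called as doublets, their sum of the mevalonate genes fell from 4.112 to 3.507. From squalene to lanosterol it fell from 1.361 to 1.18, and after lanosterol from 2.836 to 2.673. The neighbours of precursor-like cells in this order were not compared again without those cells.

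The 7 genes of uptake, trafficking, storage and efflux had another order. Their sum was 14.01 UMIs per 10,000 (12.8 to 15.3) in oligodendrocyte precursor-like cells, 11.61 (11.23 to 12.01) in microglia-like, 8.636 in astrocyte-like and 8.102 in mature oligodendrocyte-like cells. Neuroblast-like cells stood at 5.109, pericyte-like at 4.848, endothelial-like at 2.834 and smooth muscle-like at 2.692. The microglia-like level was 1.345 times (1.243 to 1.456) the astrocyte-like level. The top place rested on Lrp1, without which microglia-like cells had 9.052, mature oligodendrocyte-like 8.074, precursor-like 7.571 and astrocyte-like 5.82. Without Npc2, which alone gave most of the microglia-like sum, precursor-like cells had 12.45, astrocyte-like 6.922 and microglia-like 5.46. For every UMI of an uptake or efflux gene there were 2.402 synthesis UMIs (2.208 to 2.615) in astrocyte-like cells, 1.473 (1.324 to 1.64) in mature oligodendrocyte-like, 0.5931 (0.5115 to 0.6867) in precursor-like and 0.1954 (0.1795 to 0.2125) in microglia-like cells. It was 2.28 for smooth muscle-like, 1.854 for endothelial-like, 1.82 for neuroblast-like and 1.066 for pericyte-like cells. Without Npc2 the first 4 ratios were 2.997, 2.304, 0.6674 and 0.4157. Endothelial-like cells then had the highest at 4.463 (3.311 to 6.112), and neuroblast-like (3.242) and smooth muscle-like cells (3.167) also lay above astrocyte-like cells, with intervals that met the astrocyte-like one (2.735 to 3.287).

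**Figure D1:**
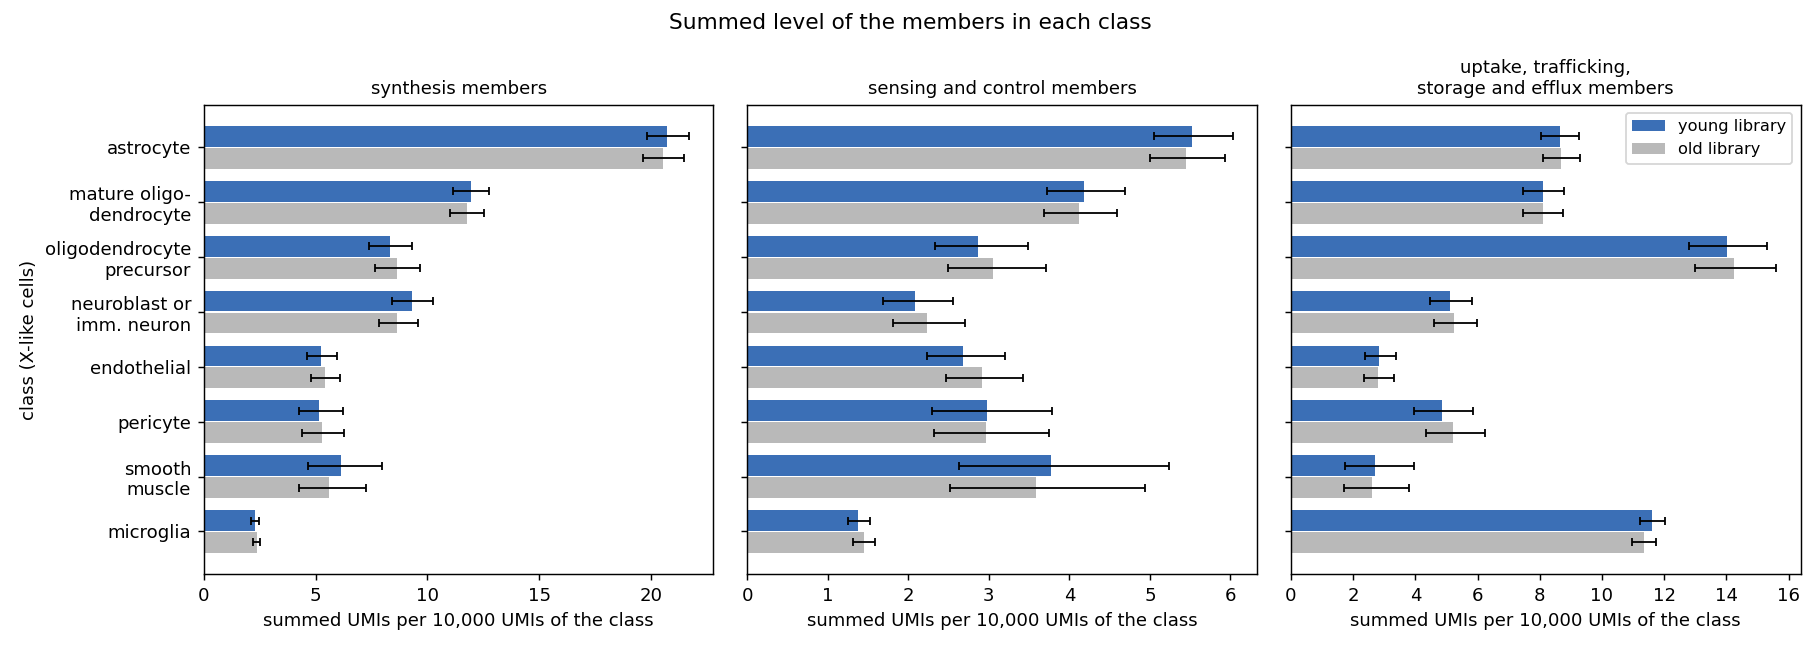
Horizontal bars give the summed UMIs per 10,000 UMIs of a class for the synthesis, control and uptake genes, in 8 classes of the young library (blue) and the old library (grey), with exact Poisson 95% intervals. Synthesis peaks in astrocyte-like cells at 20.74 and is lowest in microglia-like cells at 2.27, while the uptake and efflux genes are highest in precursor-like cells at 14.01.

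In astrocyte-like cells, 15 of the 17 synthesis genes were higher than in the other brain-class cells and 1 was lower. Of those other cells, the microglia-like class had the most UMIs (2912180) and the lowest synthesis sum. Against mature oligodendrocyte-like cells alone, 8 of the 17 were higher. Fdps, among the 15, was at 0.7423 times (0.5725 to 0.9618) the mature oligodendrocyte-like level. Here and below, a gene counts as higher or lower where the ratio is at least 2-fold, both sides hold at least 20 UMIs together and the interval of the ratio leaves out 1. Of 12336 genes tested in the same way, 21.2% were higher in astrocyte-like cells and 21.4% lower. The median log2 ratio of the 17 genes, with a pseudocount of 0.1, was 1.56, beside 0.01 for all tested genes. Of the 6 control genes 4 were higher, and of the 7 uptake, trafficking, storage and efflux genes 1 was higher and 2 were lower (2 and 1 with every class given equal weight). Where cells or classes are given equal weight, here and below, the ratio changes but the interval stays that of the summed UMIs.

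Msmo1, the sterol C4-methyl oxidase that starts removal of the C4 methyl groups after lanosterol, had the highest level of the synthesis genes in astrocyte-like cells. Its level was 6.221 UMIs per 10,000 (5.716 to 6.759) in astrocyte-like cells, 1.727 in mature oligodendrocyte-like, 1.163 in precursor-like, 0.7618 in neuroblast-like and 0.7537 in smooth muscle-like cells. Pericyte-like cells stood at 0.6403, endothelial-like at 0.4796 and microglia-like at 0.2713, and the ratio of astrocyte-like to all other brain-class cells was 10.32 (8.998 to 11.85). Msmo1 alone gave 559 of the 1864 astrocyte-like synthesis UMIs. The gene lies on GRCm38 at chr8:64718139-64733792, minus strand.

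Sqle, squalene epoxidase and a rate-limiting step after mevalonate, stood at 1.569 UMIs per 10,000 in astrocyte-like cells, 0.6498 in neuroblast-like, 0.6239 in precursor-like and 0.3651 in mature oligodendrocyte-like cells. It was 0.2153 for smooth muscle-like, 0.0654 for endothelial-like and 0.04573 for pericyte-like cells, and 4 UMIs among 2912180 put microglia-like cells at 0.01374. The astrocyte-like level was 9.80 times (7.46 to 12.9) that of the other brain-class cells. The other genes with the largest ratios were Mvd, which decarboxylates mevalonate diphosphate (7.54), Srebf1, which encodes SREBP1 (6.59), the sterol ketoreductase gene Hsd17b7 (5.99), the last-step reductase gene Dhcr7 (5.47), the sterol decarboxylase gene Nsdhl (5.20) and the squalene synthase gene Fdft1 (5.09). The remaining 12 higher members had ratios between 2.12 (Fdps, farnesyl diphosphate synthase) and 4.83 (Lss, lanosterol synthase).

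Ebp, the sterol isomerase that moves the double bond of the second ring, went the other way. It was listed at 0.3227 UMIs per 10,000 (0.2161 to 0.4635) in astrocyte-like cells, 0.3403 in precursor-like, 0.4033 in neuroblast-like and 0.323 in smooth muscle-like cells. The level was 0.8138 in microglia-like, 0.8232 in pericyte-like, 0.872 in endothelial-like and 1.039 in mature oligodendrocyte-like cells. The astrocyte-like level was thus 0.415 times (0.275 to 0.605) that of the other brain-class cells, and Ebp alone gave 35.9% of the microglia-like synthesis UMIs. Acat2, the cytosolic thiolase at the head of the pathway, was the other synthesis gene that was not higher in astrocyte-like cells.

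**Figure D2:**
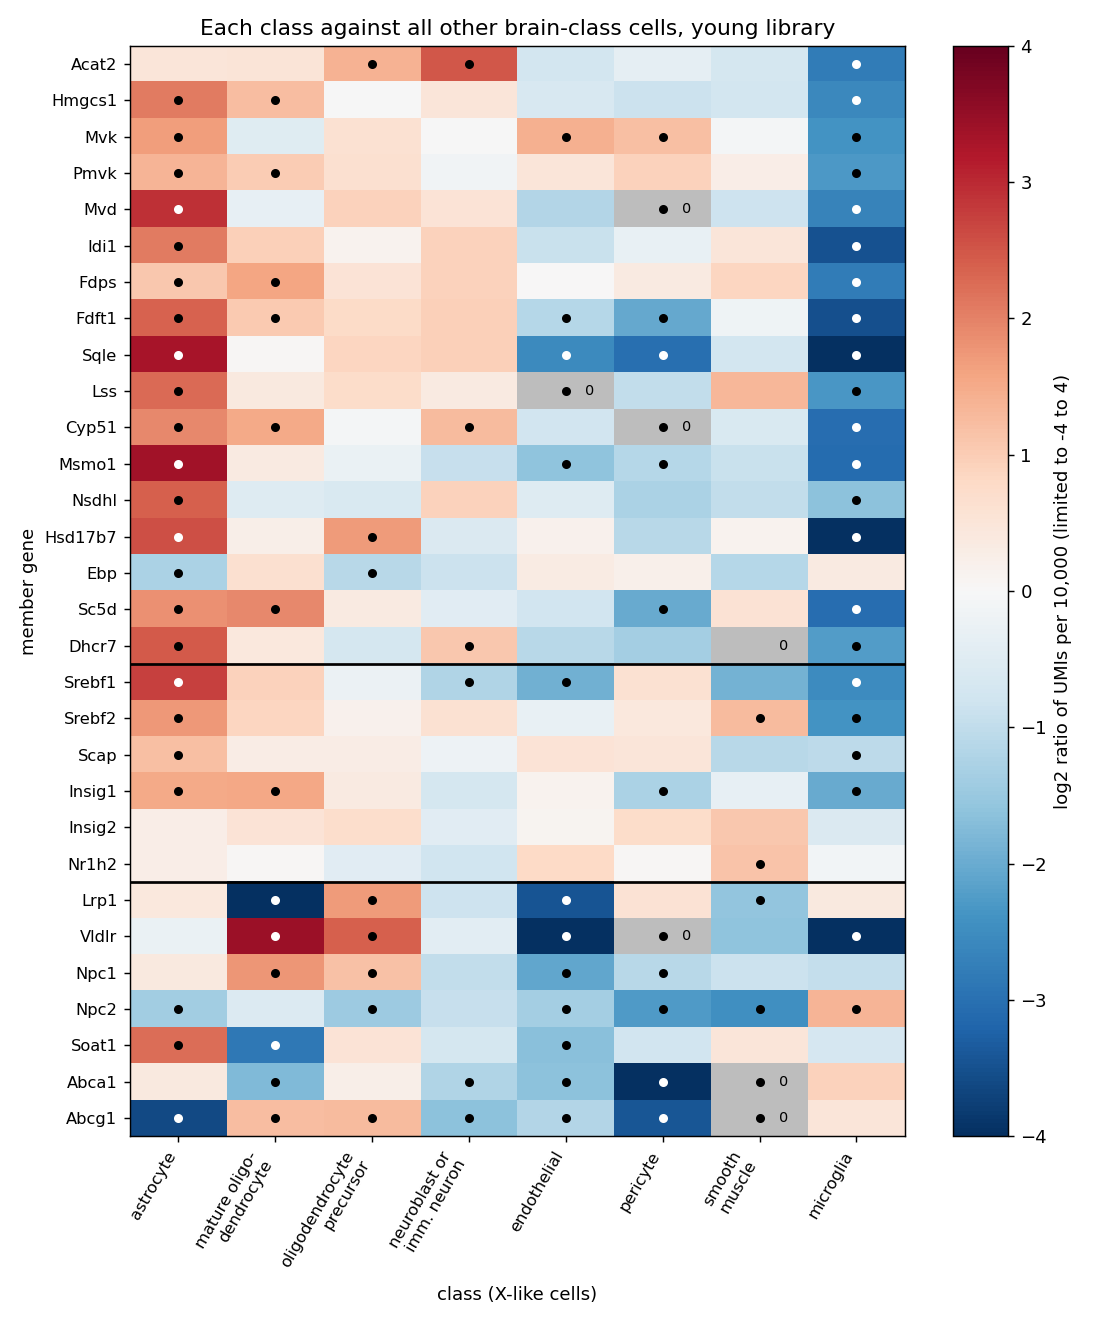
Each cell gives the log2 ratio of UMIs per 10,000 in a class against all other brain-class cells of the young library, with the 30 genes in rows (synthesis, then control, then uptake and efflux) and 8 classes in columns. Dots mark ratios past the 2-fold rule, grey cells with a 0 mark a class without a UMI, and the astrocyte-like column is red for all synthesis genes but Ebp, where the ratio is 0.415.

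Over the 7 classes other than the 14 smooth muscle-like cells, 13 of the 17 synthesis genes were highest in astrocyte-like cells, and for 8 of the 13 the interval against the next class left out 1. Fdps, Ebp and Sc5d, the lathosterol desaturase gene, were highest in mature oligodendrocyte-like cells, and Acat2 in neuroblast-like cells. Of these, the interval against the next class left out 1 for Fdps (1.04 to 1.747). It held 1 for Ebp (0.8005 to 1.797), Sc5d (0.805 to 1.537) and Acat2 (0.9182 to 3.444). Of the 17, 12 were lowest in microglia-like cells.

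The astrocyte-like lead differed between the arms of the pathway, and single genes changed that order. Against mature oligodendrocyte-like cells, the 7 genes of the mevalonate arm summed to 1.334 times as much (1.177 to 1.513), the 3 genes from squalene to lanosterol to 2.639 times (2.055 to 3.42) and the 7 genes from lanosterol to cholesterol to 1.978 times (1.751 to 2.239). Against neuroblast-like cells the same ratios were 1.559 (1.336 to 1.827), 2.119 (1.609 to 2.827) and 3.345 (2.791 to 4.036). Msmo1 gave 559 of the 916 astrocyte-like UMIs after lanosterol. Without it that arm's ratios were 1.16 (0.9827 to 1.37) and 1.738 (1.391 to 2.188), and both intervals met those of the mevalonate arm. Against microglia-like cells the ratios were 9.81, 31.6 and 7.241, with the middle arm the furthest apart at 21.38 to 48.44. Ebp gave 237 of the 410 microglia-like UMIs after lanosterol, and without it that arm's ratio was 16.62 (14.1 to 19.67), above and not below the mevalonate arm, whereas without Msmo1 it was 3.496. Without Sqle the middle arm's ratios were 1.868, 1.873 and 17.83.

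**Figure D3:**
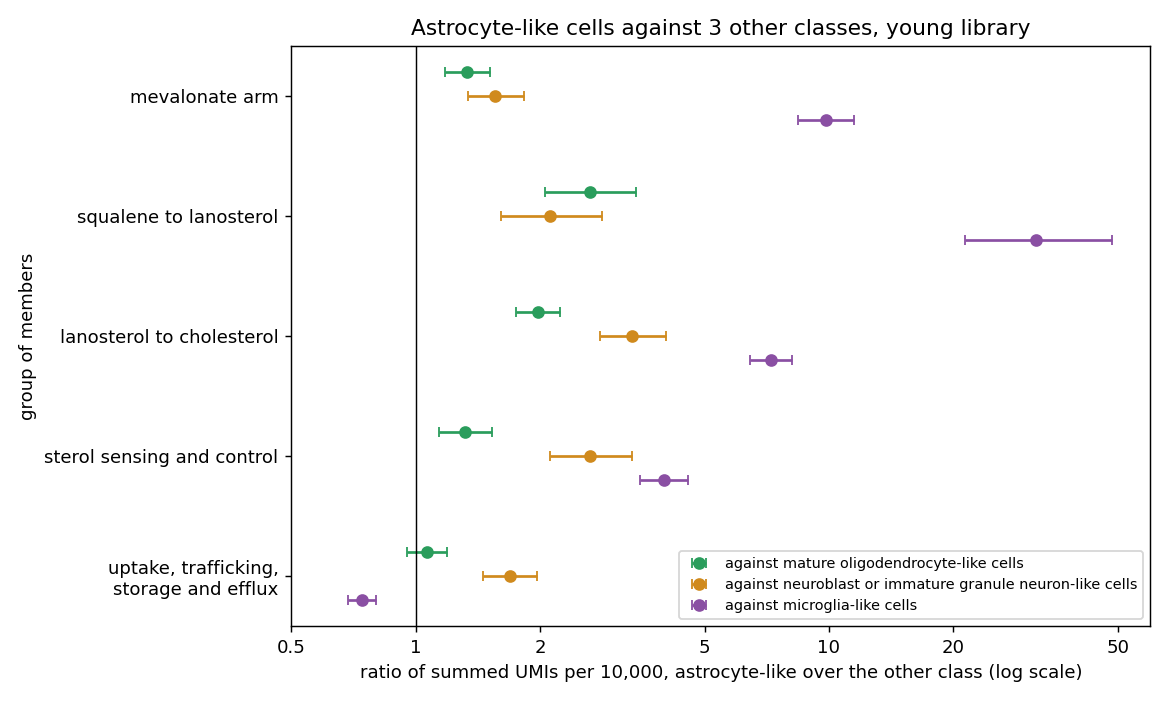
Points give the ratio of summed UMIs per 10,000 in astrocyte-like cells over mature oligodendrocyte-like (green), neuroblast-like (orange) or microglia-like cells (purple) for 5 groups of genes, on a log axis with exact 95% intervals. The ratio over microglia-like cells reaches 31.6 from squalene to lanosterol and is 0.7436 for the uptake and efflux group.

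Gene by gene, 8 of 17 synthesis genes were higher in astrocyte-like than in mature oligodendrocyte-like cells and 1 (Ebp) was lower, where 31.3% and 13.6% of 8525 tested genes were. These 8 were Mvd (4.83-fold), Nsdhl (4.54), Sqle (4.30), Msmo1 (3.60), Mvk, which phosphorylates mevalonate (3.30), Hsd17b7 (3.07), Dhcr7 (2.60) and Lss (2.48). Against neuroblast-like cells 8 were higher and Acat2 was lower, at 0.316 times (0.174 to 0.563), where 21.9% and 19.7% of 8594 tested genes were. Against microglia-like cells 16 were higher and Ebp was lower, where 34% and 18.4% of 10252 tested genes were. Sqle was 114 times (43.7 to 425) the microglia-like level and Hsd17b7 33.5 times (10.4 to 171), the latter against 3 UMIs.

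Promoters are shown for 2 synthesis genes that were higher in astrocyte-like cells, Hmgcs1 and Mvd, and for 2 genes tied to liver X receptors, Srebf1 and Abca1. Each run is the 250 bases before a transcription start in RefSeq on GRCm38.p6, read 5′ to 3′ along the gene. The table held a promoter for 25 of the 30 members. Capitals mark exact matches, on either strand, to a sterol regulatory element (TCACNCCAC, bound by SREBPs), to the CCAAT box (CCAAT, bound by the SREBP partner NF-Y, ATTGG on the other strand) or to a direct repeat of the liver X receptor type (the half-site GGTNA, 5 free bases, then GGTNA again). No window shown overlaps an annotated exon, and no match shown overlaps another.
Hmgcs1, chr13:119690101-119690350, plus strand: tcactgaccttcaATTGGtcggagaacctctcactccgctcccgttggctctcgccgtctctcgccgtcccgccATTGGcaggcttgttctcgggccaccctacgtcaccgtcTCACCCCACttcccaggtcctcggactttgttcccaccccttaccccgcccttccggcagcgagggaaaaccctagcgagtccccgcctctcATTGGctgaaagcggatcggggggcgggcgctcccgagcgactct
Mvd, chr8:122443423-122443672, minus strand: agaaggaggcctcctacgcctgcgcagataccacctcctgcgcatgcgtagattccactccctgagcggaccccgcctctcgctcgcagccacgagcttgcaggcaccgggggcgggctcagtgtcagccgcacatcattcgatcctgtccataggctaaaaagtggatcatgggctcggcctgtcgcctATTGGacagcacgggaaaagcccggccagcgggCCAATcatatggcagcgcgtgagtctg
Srebf1, downstream start, chr11:60210472-60210721, minus strand: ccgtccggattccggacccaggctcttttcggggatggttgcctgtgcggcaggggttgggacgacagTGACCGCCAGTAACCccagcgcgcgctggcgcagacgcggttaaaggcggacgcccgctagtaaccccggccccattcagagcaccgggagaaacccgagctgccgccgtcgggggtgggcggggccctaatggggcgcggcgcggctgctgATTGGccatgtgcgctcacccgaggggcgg
Abca1, chr4:53159896-53160145, minus strand: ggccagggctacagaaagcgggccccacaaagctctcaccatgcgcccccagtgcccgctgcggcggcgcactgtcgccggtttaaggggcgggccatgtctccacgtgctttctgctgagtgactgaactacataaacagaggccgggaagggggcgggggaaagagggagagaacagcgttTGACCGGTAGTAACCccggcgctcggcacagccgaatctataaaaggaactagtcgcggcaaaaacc

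A gene counted where any of its listed starts had a match. The CCAAT box was in 13 of the 14 synthesis genes with a promoter (92.9%), all but Acat2, and in 39.8% of the 12791 genes of the table with one. It was in 4 of 6 control genes and in 3 of 5 uptake and efflux genes. The sterol regulatory element in these letters was in Hmgcs1 alone among the 25, at -137 to -129 from the start, and in 1.27% of all. The direct repeat was in Srebf1 (-182 to -168) and Abca1 (-67 to -53), and in 0.571% of all. A match describes letters in this window and is no measure of binding.

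Among the control genes, both SREBP genes were highest in astrocyte-like cells of the 7 larger classes. Srebf1 stood at 1.458 UMIs per 10,000 there, 0.674 in mature oligodendrocyte-like, 0.5945 in pericyte-like, 0.3403 in precursor-like and 0.1793 in neuroblast-like cells, and between 0.1077 and 0.1099 in smooth muscle-like, endothelial-like and microglia-like cells. Srebf2, which encodes the SREBP that mainly drives cholesterol genes, was flatter. Its level was 1.391 in astrocyte-like, 1.292 in smooth muscle-like (12 UMIs), 0.9267 for mature oligodendrocyte-like, 0.8066 for neuroblast-like, 0.7317 in pericyte-like, 0.6239 in precursor-like, 0.4578 in endothelial-like and 0.1648 in microglia-like cells. Against neuroblast-like cells the astrocyte-like level of Srebf1 was 8.13 times (4.01 to 19.2), while Srebf2 did not pass the 2-fold rule in that pair.

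Insig1, which retains the SREBP escort in the endoplasmic reticulum and is itself an SREBP target, did not differ beyond counting error between its 2 highest classes. It stood at 1.292 in mature oligodendrocyte-like and 1.213 in astrocyte-like cells (ratio 1.065, 0.7979 to 1.418), and ranged from 0.2026 in microglia-like to 0.6806 in precursor-like cells elsewhere. Scap, the escort itself, was 2.33 times (1.58 to 3.36) higher in astrocyte-like than in other brain-class cells. Insig2 and Nr1h2, the gene of liver X receptor beta, were called neither higher nor lower in astrocyte-like cells. Their levels over the 8 classes ran from 0.2689 to 0.7537 for Insig2 and from 0.2913 to 1.077 for Nr1h2.

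Mature oligodendrocyte-like cells, the class that lays down myelin, had 6 of 17 synthesis genes higher and none lower than other brain-class cells, where 10% and 31.4% of tested genes were. The 6 were Sc5d (3.83-fold), Fdps (3.02), the lanosterol demethylase gene Cyp51 (2.84), the HMG-CoA synthase gene Hmgcs1 (2.33), Fdft1 (2.05) and the phosphomevalonate kinase gene Pmvk (2.03). With every cell or every class given equal weight the count was 2. The largest ratio of any member in this class was that of Vldlr, a lipoprotein and reelin receptor. Vldlr had 119 UMIs (1.671 per 10,000) there and 1.389 in precursor-like cells, but 0.2782 in astrocyte-like and 0.2465 in neuroblast-like cells. Elsewhere it had 2 UMIs in microglia-like cells, 1 each in endothelial-like and smooth muscle-like cells and 0 of 218659 in pericyte-like cells, which allows up to 0.1372. The ratio over all other brain-class cells was 10.7 (8.04 to 14.2), and 5.30 (3.77 to 7.34) in precursor-like cells.

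Lrp1, a large endocytic receptor for apolipoprotein E, separated the stages of the oligodendrocyte lineage. It stood at 6.437 UMIs per 10,000 in precursor-like cells (227 UMIs) and 0.02808 in mature oligodendrocyte-like cells (2 UMIs), a ratio of 0.004363 (0.0005251 to 0.01594). The other classes lay between, with 3.247 in pericyte-like, 2.816 in astrocyte-like, 2.562 in microglia-like, 1.277 in neuroblast-like, 0.7537 in smooth muscle-like and 0.218 in endothelial-like cells. The 2 oligodendrocyte classes thus hold the top and the bottom of this order.

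Compared directly, mature oligodendrocyte-like cells had 4 synthesis genes higher than precursor-like cells, which were Ebp (3.05-fold), Cyp51 (2.48), Sc5d (2.32) and Hmgcs1 (2.06), and none lower. In the uptake and efflux group none was higher and 3 were lower, Lrp1, Soat1 (0.108 times) and Abca1 (0.275 times). Of 6960 genes tested in this pair, 10.1% were higher and 27.9% lower. Soat1 makes cholesteryl esters for storage, and Abca1 loads cholesterol onto apolipoproteins. Scrublet called 9 of the 48 precursor-like cells as doublets, and markers of mature oligodendrocytes summed to 26.88 UMIs per 10,000 in the 48 cells and 6.805 in the other 39. Without the 9 cells, Lrp1 was 6.631 and Vldlr 1.215 in precursor-like cells, Hmgcs1 was 0.5555 and not 0.8791, and Idi1 (2.427-fold), Insig1 (3.101) and Npc2 (2.214) were also higher in mature oligodendrocyte-like cells. In the old library the Hmgcs1 ratio was 1.872, under the 2-fold rule, and Mvk, Mvd and Hsd17b7 were lower. Against the other brain-class cells, the log2 ratio of the precursor-like synthesis sum was 0.23, or 0.05 without the 9 cells. It turned to -0.10 with every cell and to -0.06 with every class given equal weight.

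Precursor-like cells had 4 of 7 uptake and efflux genes higher than other brain-class cells and Npc2 lower, where 18.9% and 12% of tested genes were. The 4 were Vldlr, Lrp1 (3.26-fold), Abcg1 (2.40) and Npc1 (2.26), and without the 9 called doublets the same 4 were higher, by 4.60, 3.37, 2.38 and 2.64. Of the synthesis genes Hsd17b7 (3.27) and Acat2 (2.65) were higher and Ebp (0.463) was lower. With every cell or every class given equal weight 1 synthesis gene was higher, and with every class given equal weight neither Ebp nor Npc2 was lower.

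The storage and efflux genes divided the glia. Soat1 was 1.436 UMIs per 10,000 in astrocyte-like cells, 0.6522 in precursor-like, 0.646 in smooth muscle-like, 0.3468 in microglia-like and 0.2913 in neuroblast-like cells. Pericyte-like cells had 0.2744, endothelial-like 0.1526 and mature oligodendrocyte-like 0.0702 (5 UMIs). Abcg1, which passes sterol to lipidated particles, had another pattern, with 4 UMIs and 0.04452 per 10,000 in astrocyte-like cells. Its level was 1.049 in precursor-like, 0.9688 in mature oligodendrocyte-like, 0.5563 in microglia-like, 0.218 (endothelial-like), 0.1568 (neuroblast-like) and 0.04573 (pericyte-like), with no UMI in smooth muscle-like cells, which allows up to 0.323. The astrocyte-like level was 0.0825 times (0.0223 to 0.213) that of the other brain-class cells. Abca1, its partner in efflux, was at 1.477 in microglia-like, 1.369 in astrocyte-like and 1.276 in precursor-like cells. The first 2 of these differed by a ratio of 1.079 (0.8808 to 1.329). The other classes had 0.4929 (neuroblast-like), 0.3706 (endothelial-like), 0.351 (mature oligodendrocyte-like), 0.04573 (pericyte-like) and no UMI (smooth muscle-like).

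Microglia-like cells had 16 of 17 synthesis genes lower than other brain-class cells and none higher, where 40.3% and 11.5% of tested genes were. The median log2 ratio of the 17 was -1.73, beside -0.44 for all tested genes. The 8 lowest members were Vldlr (0.0118 times), Sqle (0.0215), Hsd17b7 (0.0609), Fdft1 (0.0881), the isomerase gene Idi1 (0.0888), Msmo1 (0.118), Cyp51 (0.120) and Sc5d (0.121), and 13 more members were lower at ratios from 0.144 (Fdps) to 0.489 (Scap). Ebp, at 1.288 times (1.068 to 1.553), was the synthesis gene that was not lower. Npc2, the soluble protein that hands cholesterol to Npc1 in lysosomes, was higher. It stood at 6.153 UMIs per 10,000 in microglia-like cells (1792 UMIs), 2.921 in mature oligodendrocyte-like and 2.241 in neuroblast-like cells. Astrocyte-like cells had 1.714, endothelial-like 1.657 and precursor-like 1.56. Pericyte-like cells had 0.8689 and smooth muscle-like cells 0.7537. Its membrane partner Npc1 had another order, with 2.092 in mature oligodendrocyte-like, 1.645 in precursor-like, 0.9794 in astrocyte-like and 0.5116 in microglia-like cells, and between 0.1962 and 0.4307 in the other 4 classes.

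**Figure D4:**
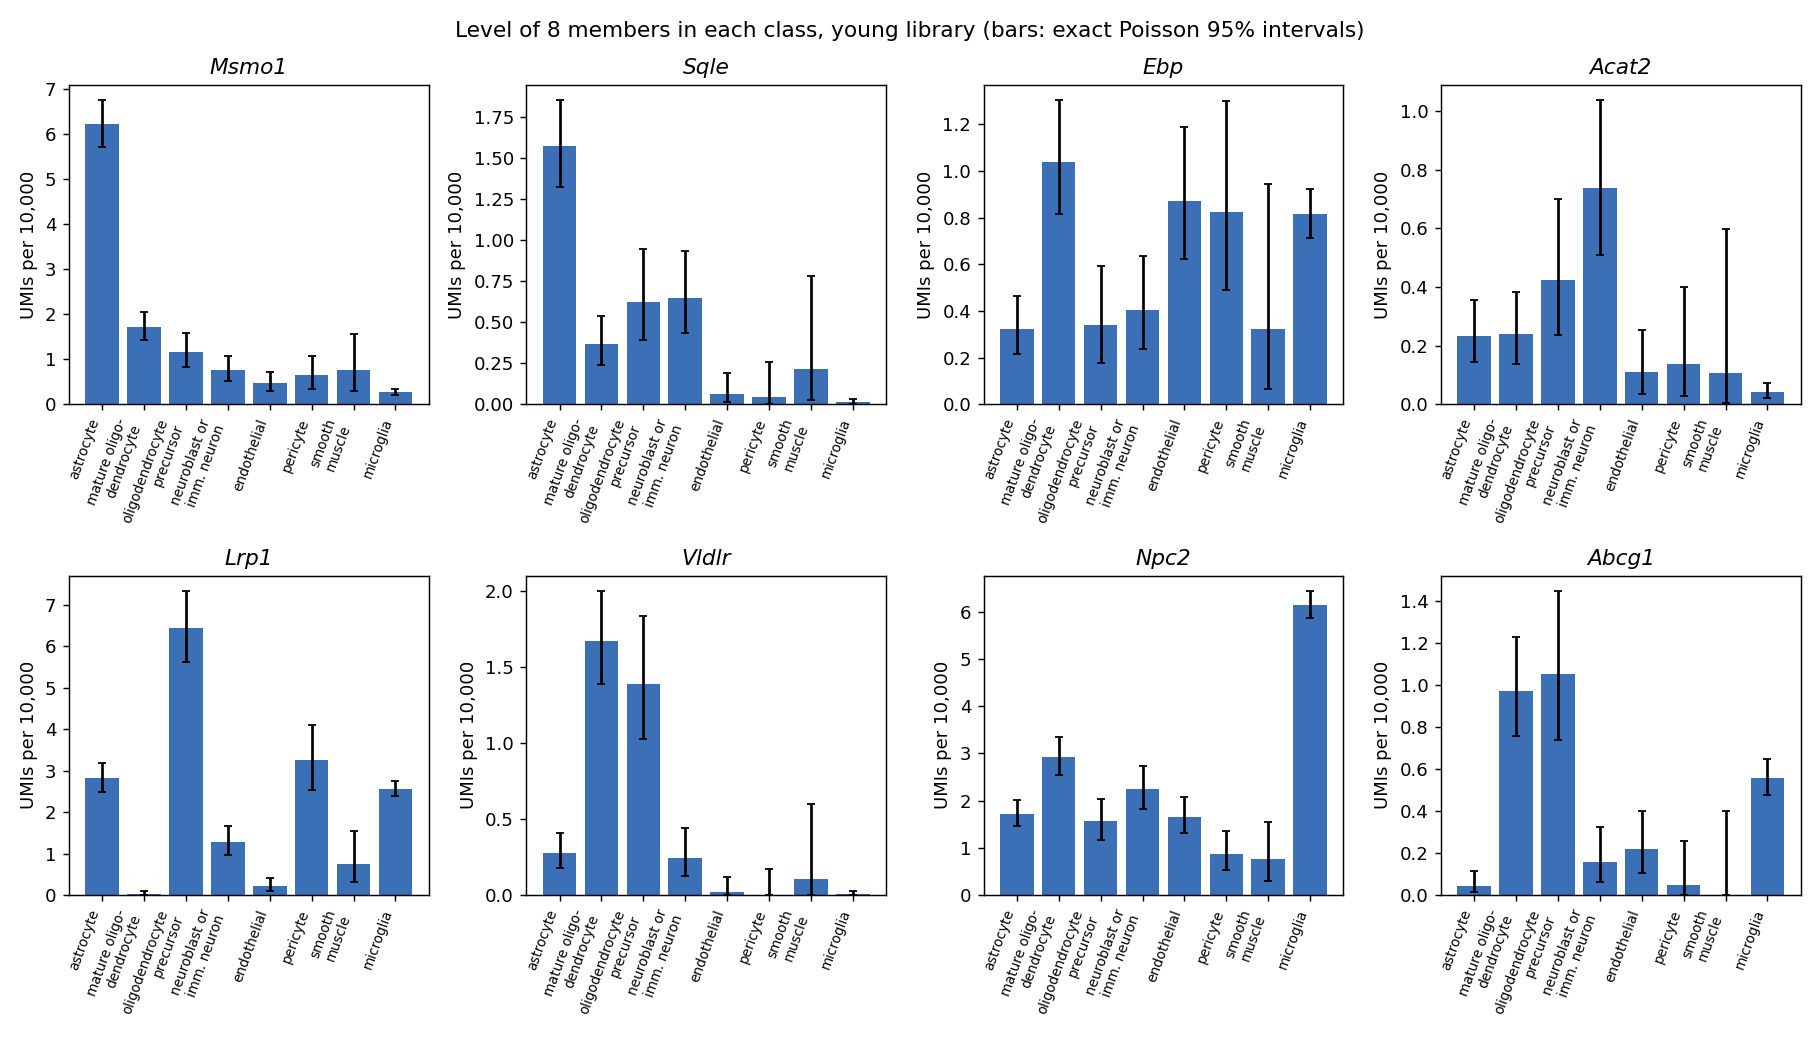
Bars give the level of 8 genes in UMIs per 10,000 in each class of the young library, with exact Poisson 95% intervals, and each panel has its own axis from 0. Msmo1 and Sqle peak in astrocyte-like cells and Ebp does not. The highest Acat2 level, 0.7394 in neuroblast-like cells, is not beyond counting error above that of precursor-like cells. Lrp1 is at 0.02808 in mature oligodendrocyte-like cells, and Npc2 peaks in microglia-like cells at 6.153.

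In neuroblast-like cells 3 of 17 synthesis genes were higher than in other brain-class cells and none lower, where 18.9% and 19.6% of tested genes were. Acat2 stood at 0.7394 UMIs per 10,000 there (33 UMIs), 0.4254 in precursor-like, 0.2387 in mature oligodendrocyte-like, 0.2337 in astrocyte-like and at most 0.1372 in the other classes. Its ratio was 5.55 (3.59 to 8.43), followed by Cyp51 (2.41) and Dhcr7 (2.12). Srebf1 (0.438), Abca1 (0.432) and Abcg1 (0.317) were lower. With every cell given equal weight 1 synthesis gene was higher, 1 was lower and 1 uptake and efflux gene was lower, and at clustering resolution 2, 5 synthesis genes were higher. The last 500 bases of Acat2 transcripts share 36.8% of their 31-base words with Acat3 and 17.3% with Tcp1 on the opposite strand, so its counts are less certain than those of most members. For Fdps the shared part was 47% (Gm43738), for Idi1 40.2% (Gm13502) and for Fdft1 25.9% (Gm6781) and 37.3% on the opposite strand (Ctsb). No member reached 50%, and whether counting used strand is not given in the sources used here.

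Most uptake and efflux genes had low levels in the vascular classes. Lrp1 was an exception in pericyte-like cells, at 3.247 UMIs per 10,000 and 67% of their sum. That sum did not differ beyond counting error from the neuroblast-like sum. In endothelial-like cells 7 of 7 uptake and efflux genes were lower (4 with every class given equal weight). Of the synthesis genes Mvk was higher (2.68-fold) and 4 were lower, where 11.5% of tested genes were higher and 20% lower. With every cell or every class given equal weight, no synthesis gene was higher. The lowest were Lss (0 UMIs, which allows up to 0.0654 per 10,000), Vldlr (0.0629 times), Lrp1 (0.0919), Sqle (0.173), Npc1 (0.239), Srebf1 (0.263), Soat1 (0.316) and Abca1 (0.322). In pericyte-like cells 1 synthesis gene was higher, again Mvk (2.31-fold, and none with equal weights), 6 were lower, and 5 of 7 uptake and efflux genes were lower, where 10.7% and 12.9% of tested genes were. Mvd, Cyp51 and Vldlr had no UMI there, and Abca1 (0.0404 times), Abcg1 (0.0941), Sqle (0.125), Npc2 (0.207) and Fdft1 (0.243) followed. In the 14 smooth muscle-like cells Srebf2 (2.38-fold) and Nr1h2 (2.23) were higher, no synthesis gene was called, and Lrp1 (0.336), Npc2 (0.182), Abca1 and Abcg1 were lower, where 6.86% of tested genes were higher and 8.73% lower.

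Of the other genes of the pathway, 3 of 12 in sterol synthesis and control were higher in astrocyte-like cells and none lower, where 21.2% and 21.4% of tested genes were, so this count was near the background. Their median log2 ratio was 0.20, beside 0.01 for all tested genes. Among those at least 4-fold higher was the reductase gene Tm7sf2 (0.3339 UMIs per 10,000, 12.4-fold). Of 16 other uptake and efflux genes 6 were higher and 2 lower in astrocyte-like cells, against the same background. At 4-fold or more these included Lcat, which esterifies cholesterol on lipoproteins (4.952, 94.9-fold), Cyp46a1, which turns cholesterol into its exported hydroxylated form (0.6344, 32.0-fold), the lipoprotein gene Apoe (241.4, 12.6-fold), the transporter gene Abcg4 (5.23-fold) and the sterol transfer gene Gramd1b (5.01-fold), and Mylip, which marks lipoprotein receptors for degradation, was lower (0.115 times). Of 8 fatty acid genes driven by SREBP1, 6 were higher, with Fads2 (30.5-fold), Fasn (6.28) and Fads1 (4.07) at least 4-fold higher. In mature oligodendrocyte-like cells 5 of these 8 were higher, where 10% of tested genes were, at 4-fold or more the desaturase genes Scd1 (8.87) and Scd2 (8.37) and the elongase gene Elovl6 (6.35), while Fads2, Mylip, Lcat, Lrp8 and Nr1h3 had no UMI and Cyp46a1 and Gramd1a were lower.

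Over the 8 classes, 4.17% to 9.01% of tested genes were at least 4-fold higher and 7.13% to 25.8% at least 4-fold lower. Of the lipoprotein receptor genes outside the 30 members, 2 were high in classes other than glia. Lrp8, a receptor for apolipoprotein E and reelin, was 2.027 UMIs per 10,000 in endothelial-like cells (9.73-fold) and 1.501 in neuroblast-like cells (5.97-fold). The endothelial-like class also had Scarb1, the HDL receptor gene (9.34-fold), the sterol carrier gene Stard4 (11.2-fold) and Lbr, a sterol reductase of the nuclear envelope (4.39-fold). Pericyte-like cells had Nr1h3, the gene of liver X receptor alpha (1.509, 44.8-fold), and Tmem97 (4.44-fold), and precursor-like cells had Abcg4 (7.13-fold). In microglia-like cells Mylip was higher (2.242, 6.91-fold), and of the 36 other genes 18 were at least 4-fold lower, where 25.8% of tested genes were, among them Abcg4 and Fads2 with no UMI and Gramd1b at 0.197 times. Others of the 18 were Tm7sf2, Stard4, Lrp8, Nr1h3, Apoe, Cyp46a1, Lcat, Scd1, Scd2, Fasn, Acaca and Elovl6. Apoe was also at least 4-fold lower in the neuroblast-like, pericyte-like and smooth muscle-like classes, and Lcat in those classes and in precursor-like cells. Mylip was lower in precursor-like, neuroblast-like and endothelial-like cells, and Lipa and Scd1 were lower in neuroblast-like cells. Endothelial-like cells were at least 4-fold lower in Cyp46a1, Gramd1b, Fasn, Elovl6, Fads1 and Fads2, pericyte-like cells in Lrp8, Gramd1a, Gramd1b, Scd1, Scd2 and Fasn, and smooth muscle-like cells in Lipa, Scd2, Fasn and Fads1.

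Depth and foreign RNA differed between the classes. Median UMIs per cell were 1908 in astrocyte-like, 9609 in mature oligodendrocyte-like and 7964.5 in microglia-like cells. With each cell thinned to 1000 UMIs, 84.79% (79.87 to 88.91) of 263 astrocyte-like, 54.55% of 77 mature oligodendrocyte-like and 20.5% (16.45 to 25.04) of 361 microglia-like cells had a UMI of a synthesis gene, beside 88.49%, 97.47% and 78.3% before thinning and with 41, 2 and 3 shallower cells left out. No class is known to lack these genes, so no background share can be given. All 10 astrocyte markers were found in mature oligodendrocyte-like, precursor-like, endothelial-like and microglia-like cells, at 1.28%, 7.9%, 2.44% and 1.57% of their summed astrocyte-like level, where the synthesis sums were 57.5%, 40.1%, 25.3% and 10.9% of the astrocyte-like sum. Pericyte-like cells had 28.8%, unevenly spread over the 10 markers, and neuroblast-like and smooth muscle-like cells had 3.93% and 5.46% with 1 and 3 of the 10 markers at 0. The part of foreign RNA in the member levels was not tested. The 10 microglia markers stood at 0.202% to 4.03% of their own level in the other classes.

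The astrocyte-like class was made of 2 clusters. The larger, of 280 cells, had a synthesis sum of 21.09 UMIs per 10,000 (20.11 to 22.1), a control sum of 5.787 and an uptake and efflux sum of 9.071. The smaller, of 24 cells led by Mt3 and Aldoc, had 16.49 (13.56 to 19.86), 2.228 (1.247 to 3.675) and 3.268 (2.048 to 4.948). A finer clustering, run separately, gave astrocyte-like clusters of 111 cells with a median of 4756 UMIs and 165 cells with a median of 1225. Their median mitochondrial shares were 10.4% and 3.78%, and what separates them was not tested. Their synthesis sums were 22.82 and 17.56, and Ebp was 0.4515 and 0.08264 (2 UMIs). The remaining astrocyte-like cluster of the finer clustering had Msmo1 at 1.931, beside 7.102 in the 111 cells. Sqle, Lss, Nsdhl, Hsd17b7, Sc5d and Dhcr7 had 1 UMI each in it and Ebp had none. All genes of the mevalonate arm went the other way. Among them were Hmgcs1 (3.565), Pmvk (2.377), Fdps (1.931) and Idi1 (1.783), beside 2.848, 0.9377, 1.476 and 1.372 in the 111 cells. Cyp51 was also above the 111 cells (1.04 beside 0.7988). Several of these rest on few UMIs in that cluster, such as 4 for Acat2 and 5 for Mvd.

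Members stood at nearly the same levels in the 2 libraries, whose brain-class cells are mostly the same barcodes. The number of members whose old over young interval left out 1 was 0 in each of the 8 classes, and no test was possible. In astrocyte-like cells the 29 members with at least 20 UMIs had ratios from 0.8333 (Insig2) to 1.242 (Acat2). In microglia-like cells 26 members ranged from 0.8803 (Nsdhl) to 1.444 (Srebf2). These ratios are not read as a difference of age.

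**Figure D5:**
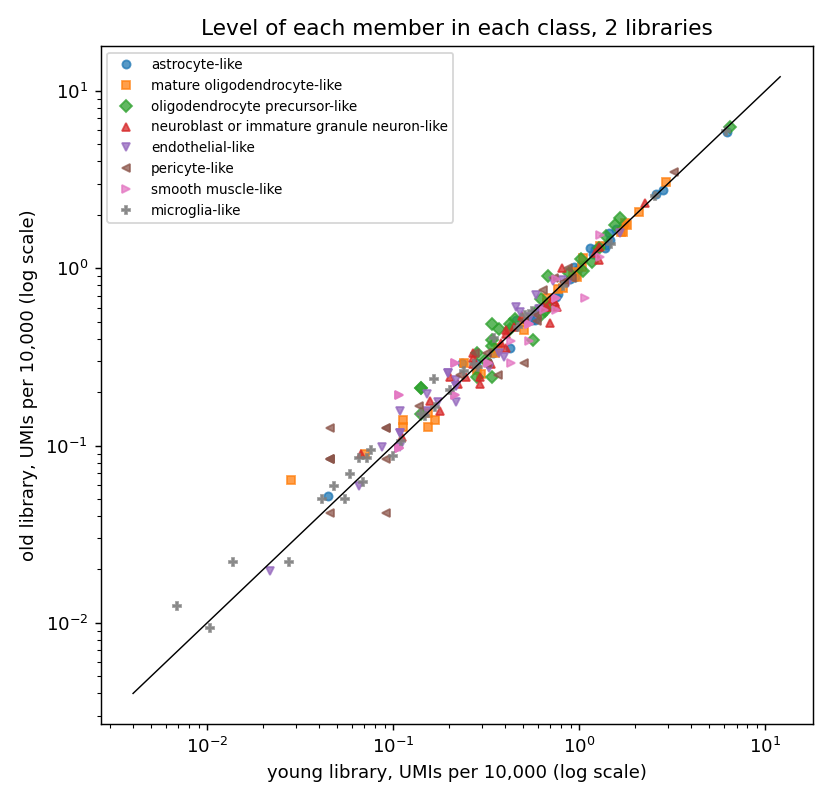
Each point is 1 gene in 1 class, with its level in UMIs per 10,000 in the young library on the x axis and in the old library on the y axis, both on log scales, and the line marks equal levels. The 233 of 240 pairs with a UMI in both libraries lie along the line, with the widest scatter at the lowest levels.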

How the data were processed

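The deposited table holds 3893 cells in rows and 17592 genes in columns. Its values, as deposited by the authors, are UMIs per 10,000 of a cell plus 1, as a natural log, a unit read from the values. On the linear scale every cell summed to 10000. All values (100%) were whole multiples, within 0.01, of what 1 UMI is worth in their cell, so UMIs were recovered. Per the submitters' processing notes, Cell Ranger 5.0.0 and the mm10 build were used. Its annotation and cell filters were not given in the sources used here.

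All cells were kept. Scanpy 1.11.5 (Python 3.11.15, igraph 0.11.9) clustered both libraries together on 2000 variable genes, without the 66 genes of the pathway, with 30 principal components, 15 neighbours and Leiden resolution 1. A cluster was named where at least 3 of a class's markers (181 markers, 22 classes) were in 25% of its cells and 4-fold higher than elsewhere. It stayed unnamed where another class had more markers among its 10 leading genes, or where it was shallow and had no marker among them. Clusters with a median mitochondrial share below 1% were left out. Scrublet called 37 young and 23 old doublets, which were kept.

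Levels are summed UMIs per 10,000 UMIs of a class in the young library. Intervals are exact, Poisson for levels and binomial (Clopper-Pearson) for shares and ratios, at 95%. They cover counting error only. The rule was tested on simulated counts. Upper limits for 0 UMIs are the level of 3 UMIs. For each class, at most 8 members in each direction were named by size of ratio, and other genes of the pathway where at least 4-fold apart. Some genes past this rule are not reported here. The members and lists were chosen with earlier results of these data known, and the pairs of classes, the sums without a leading gene and the promoter motifs after levels were seen. Gene positions and 3' ends are from GENCODE M21 on GRCm38. Alternatives were the old library, other clusterings and resolutions, removal of doublets, means of cells, other totals, equal weights for classes, and a 1.5-fold or no-minimum rule. Calls with means of cells or equal weights for classes used the reweighted ratio with the interval of the summed UMIs.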

Additional observations from a re-analysis of the deposited data

How the results depend on the processing

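Beside the sums without a single gene, given with the results, 490 alternative values were computed. Of these, 431 kept their direction and stayed within the interval or within 1.5 times the count, 53 moved further and 6 changed direction. None of the 48 values moved when the genes of the pathway took part in clustering, and 69 of 72 kept their place in the old library, where the cells are mostly the same. The astrocyte-like excess and the microglia-like deficit of synthesis kept their direction under every alternative run.

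Weights mattered most. The log2 ratio of the synthesis sum with every cell weighted alike was -0.701 in endothelial-like, 0.416 in mature oligodendrocyte-like and -0.785 in pericyte-like cells, and it changed sign to -0.054 in neuroblast-like and -0.104 in precursor-like cells. With every class weighted alike it was 1.586 in astrocyte-like, -0.796 in endothelial-like, 0.547 in mature oligodendrocyte-like, -2.073 in microglia-like, 0.122 in neuroblast-like and -0.822 in the pericyte-like class, and -0.064, a change of sign, in precursor-like cells. Without doublets the precursor-like value was 0.048. For the uptake and efflux sum, every cell alike gave -0.088 in mature oligodendrocyte-like and 0.764 in precursor-like cells and a change of sign to 0.044 in astrocyte-like cells. Every class alike gave -1.471 in endothelial-like, 0.814 in microglia-like, -0.560 for neuroblast-like, 1.162 in precursor-like and -0.643 in pericyte-like cells, with changes of sign to 0.297 in astrocyte-like and 0.189 in mature oligodendrocyte-like cells. By construction, cells of the deep microglia-like class weigh less in both.

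Counts of synthesis genes higher fell with every cell weighted alike to 0 in endothelial-like, 2 for mature oligodendrocyte-like, 1 for neuroblast-like, 1 for precursor-like and 0 for pericyte-like cells, and with every class weighted alike to 0, 2 and, in precursor-like and pericyte-like cells, 1 and 0. In neuroblast-like cells the count was 5 at resolution 2, 6 with mitochondrial and ribosomal genes out of the total and 8 at 1.5-fold. At 1.5-fold it was 4 in precursor-like and 2 in pericyte-like cells, and 0 in pericyte-like cells at resolution 0.5. Synthesis genes lower numbered 2 (old library), 1 (cells alike), 1 (classes alike) and 2 (1.5-fold) in neuroblast-like, 0 (classes alike) in precursor-like and 1 (old library) in smooth muscle-like cells. Uptake and efflux genes higher numbered 2 in astrocyte-like cells with classes alike, and 2 in microglia-like cells with cells alike, with classes alike and at 1.5-fold. Those lower numbered 1 in astrocyte-like, 4 in endothelial-like and 0 in precursor-like cells with classes alike, 2 (cells alike) and 3 (1.5-fold) in microglia-like cells, and 5 (resolution 2), 1 (cells alike) and 5 (1.5-fold) in neuroblast-like cells.

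Between mature oligodendrocyte-like and precursor-like cells, 3 synthesis genes (Mvk, Mvd and Hsd17b7) were lower in the old library, and without doublets 1 control gene (Insig1) and 1 uptake and efflux gene (Npc2) were higher, as was Idi1. Hmgcs1 was no longer called in the old library. Both alternatives of the pairs of classes were chosen after seeing the data. The cause of these changes was not tested beyond what the weights do by construction. No paired analysis was possible because each age has 1 library, so there is at most 1 pair. Members with few UMIs in a class, such as Lss or Hsd17b7, have intervals too wide to rank classes.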

Other observations

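Unnamed and low-mitochondrial clusters entered no comparison as classes. The 63 unnamed cells led by Ttr and hemoglobin genes had a synthesis sum of 3.113 UMIs per 10,000 and an uptake and efflux sum of 10.78, and the 22 unnamed cells led by S100a8 and S100a9 had 5.221 and 9.231. In the cluster of these 22 cells, 8 perivascular macrophage markers passed the marker rule. It stayed unnamed because neutrophil markers were more frequent among its leading genes. At resolution 2, a set of 9 Cajal-Retzius-like cells had a synthesis sum of 6.7 (4.377 to 9.817).

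The 1315 low-mitochondrial young cells, with 9761140 UMIs, held the synthesis genes very unevenly. Hmgcs1 had 458 UMIs there, Fdft1 378 and Cyp51 340, whereas Mvk had 3, Fdps 2, Ebp, Mvd, Lss and Dhcr7 1 each and Hsd17b7 none. Scap had 412 UMIs and Insig2 329 but Insig1 16, Srebf2 44 and Srebf1 4, and Abca1 had 402 but Abcg1 10. In astrocyte-like cells, with 898550 UMIs, Fdps had 118, Dhcr7 69, Mvd 67 and Mvk 50. These are values of 1 library and no explanation was tested.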
